A study of Mus musculus with 4 samples.

Results

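The transcripts of 10 genes were followed 1 by 1 in immune cells of healing mouse skin: Clta, Gga3, Ctage5, Inpp5d, Fyb, Camk2g, Eif4a2, Alg11, Acsl4 and Crbn. They are 10 of the 24358 gene symbols in the deposited table and account for 31 of its 34535 transcripts. They were picked because their transcripts moved in opposite directions between the compared populations, or because the most abundant transcript changed. The opposed movements below are therefore a description of the chosen genes, with no test of their own. Not all of them are immune genes by function. Inpp5d and Fyb are known mainly from blood cells, whereas clathrin, translation, glycosylation and ubiquitin ligase genes work in most cell types.

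RNA was sequenced from cells sorted out of the dermis of wound beds on day 5, from male C57/Bl6 mice that were 7 weeks old. CD301b macrophages, which carry the C-type lectin CD301b, were represented by 2 libraries. Immune cells negative for F4/80, a surface protein of mouse macrophages, were represented by another 2 libraries. The question was how the RNA of these sorted populations differs. No macrophages without CD301b were included, so CD301b and macrophage identity cannot be told apart, and the labels do not say whether a library came from 1 animal or from pooled animals.

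A gene can give several messenger RNAs by starting at different sites, by joining different exons or by ending at different sites. The resulting transcripts may encode proteins that differ by a short insert, proteins that lack a domain, or no full protein at all, and the choice among them is known to vary between cell types. Each transcript was given as 1 FPKM value per population (fragments mapped to a transcript, corrected for its length and for the size of the library). No spread between libraries could be computed, no error accompanies an FPKM, and the depth of each library is unknown. Where values are written as A against B, the first belongs to F4/80-negative cells and the second to CD301b macrophages. The authors' deposited table gives a p-value from Cuffdiff, which was adjusted over the 16921 tested transcripts by the Benjamini-Hochberg method, and a transcript is called higher or lower in CD301b macrophages at 0.05 or less. The labels leave it unsaid whether libraries are from separate animals, so these p-values may cover technical spread only.

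The sorted populations differed in markers of several cell types. All 7 macrophage markers examined were higher in CD301b macrophages, among them Adgre1, which encodes F4/80 (151 against 557 FPKM). F4/80-negative cells thus held Adgre1 RNA as well. Mgl2, which encodes CD301b, went the other way (103 against 49.2 FPKM). The population labelled CD301b macrophages thus had the lower Mgl2 RNA level. The label names CD301b, a surface protein, and surface protein was not measured here. Every direction below is by label. All 5 dendritic cell markers were lower in CD301b macrophages (summed level 228 against 55.996 FPKM), as were all 4 mast cell markers (47.3 against 16.4 FPKM) and 3 of 4 neutrophil markers (3847 against 2125 FPKM). The neutrophil sum was mostly S100a8 (1725 against 938 FPKM) and S100a9 (2025 against 1092 FPKM). Csf3r, lower by call, was nearly level at 71.3 against 68.1 FPKM, and Cxcr2, not called, was 25.7 against 27.3 FPKM. Of 4 T and NK cell markers, Klrd1 was lower (37.1 against 4.18 FPKM), while Cd3e, Cd3d and Ncr1 were below 1 FPKM in both populations. No B cell, keratinocyte, endothelium or muscle marker was called. None of 5 fibroblast markers was called, with a summed level of 6081 against 4130 FPKM, and no marker was at 0 in both populations. In sorted bulk cells, fewer cells of a type and less RNA per cell cannot be told apart, nor can a change in the mix of cell types and a change of transcripts within a type, and the part of these markers in the results below was not tested.

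Of the 31 transcripts, 29 were tested. In CD301b macrophages 8 were called higher, beside 9.10% of all tested transcripts, and 8 were called lower, beside 5.14%. Another 13 were not called. In 7 genes (Clta, Eif4a2, Inpp5d, Fyb, Camk2g, Alg11 and Ctage5) 1 transcript was called higher and 1 lower. Among the 2649 genes with several tested transcripts, 13 did so, or 0.491%, and 6 of these 13 are not described here. Gga3 and Crbn had 1 call each and Acsl4 had none. The most abundant transcript differed between the populations in 7 genes (Eif4a2, Camk2g, Alg11, Ctage5, Acsl4, Crbn and Gga3) and was the same in Clta, Inpp5d and Fyb. Over the 4929 genes with several transcripts above 0 FPKM, it differed in 16.4%. Since the genes were chosen on these patterns, the shares over all genes give their setting and nothing more.

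**Figure D1:**
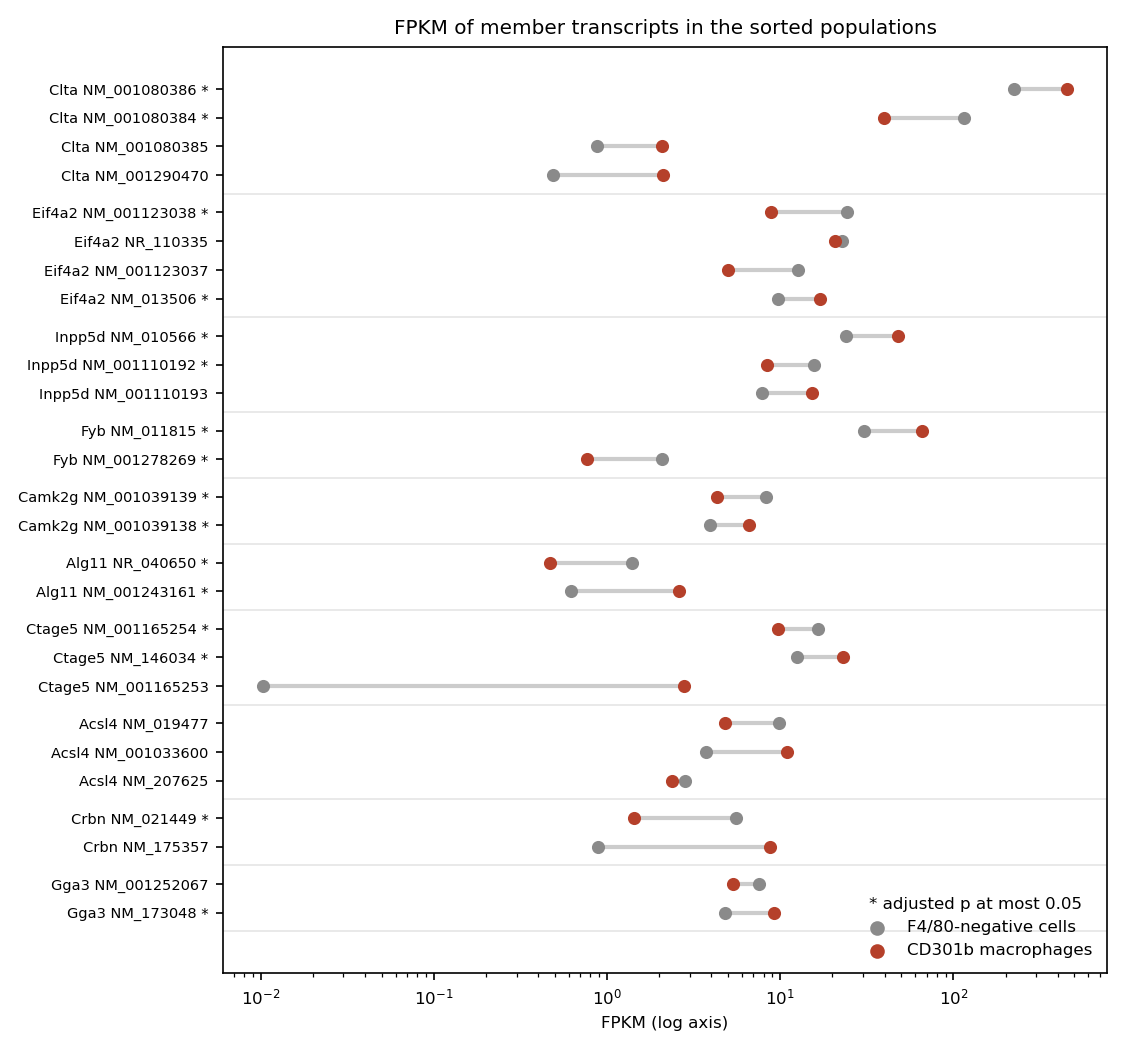
FPKM on a log axis (horizontal) of the member transcripts that reached 1 FPKM in a population, by gene; grey points are F4/80-negative cells, red points CD301b macrophages, and an asterisk marks an adjusted p of at most 0.05. Each point is the authors' single value for a population, so there is no error bar; in Clta, for example, 1 abundant transcript runs from 224 to 452 FPKM and the other from 115 to 39.7 FPKM.

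The genes are described by the roles of their proteins, beginning with membrane traffic. Clta encodes clathrin light chain a, a subunit of the coat that shapes vesicles at the plasma membrane and the Golgi (NCBI gene 12757, chromosome 4, 44003816 to 44032846, GRCm38). It was by far the most abundant of the 10 genes. Transcript NM_001080386 was 224 against 452 FPKM, a 2.02-fold rise (adjusted p = 0.00572, from the authors' deposited table). Transcript NM_001080384 was 115 against 39.7 FPKM, 2.90-fold lower in the macrophages (adjusted p = 0.00458, from the authors' deposited table). The first made up 65.7% of the summed FPKM of Clta in F4/80-negative cells and 91.1% in CD301b macrophages, while the second went from 33.8% to 8.01%. The sum itself was 341 against 496 FPKM, so the sum hides the lower transcript.

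Sequence differences here and below are those of the GENCODE transcripts paired with each accession, whose ends may differ from the quantified RefSeq transcripts. The abundant Clta transcripts share 1030 exonic bases by these pairs. NM_001080384 has 49 that NM_001080386 lacks, most of them noncoding at the 5′ end, and 6 of them are coding bases at the 3′ end of an exon (chr4:44013003-44013008, plus strand). The remaining transcripts of Clta carry a 54-base coding exon (chr4:44030215-44030268), a 36-base coding exon (chr4:44031400-44031435) or both, inserts that are known from the light chains of brain. The 3 stretches are shown because they are what distinguishes the encoded light chains. Capitals mark the alternative bases and lower case the coding bases on either side:
Clta 6-base stretch: agccgccgggagGTCCGGatgctgttgacg
Clta 54-base exon: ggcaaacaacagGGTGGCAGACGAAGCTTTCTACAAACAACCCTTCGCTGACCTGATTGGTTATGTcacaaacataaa
Clta 36-base exon: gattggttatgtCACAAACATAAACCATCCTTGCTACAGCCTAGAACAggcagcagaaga
Transcripts with the 6-base stretch made up 34.3% of the summed FPKM in F4/80-negative cells and 8.87% in CD301b macrophages. Those with the 54-base exon made up 0.414% and 0.436%. Those with the 36-base exon made up 0.401% and 0.842%, at 1.37 against 4.17 FPKM. The 3 transcripts with these exons were at 2.10 FPKM or less in both populations and none was called.

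Gga3 encodes a Golgi-localised adaptor that binds sorting signals of cargo bound for lysosomes and recruits clathrin (NCBI gene 260302, chromosome 11, 115584255 to 115604517). NM_173048 was 4.77 against 9.23 FPKM, a 1.94-fold rise (adjusted p = 0.00674, from the authors' deposited table). NM_001252067 was 7.57 against 5.30 FPKM and was not called (adjusted p = 0.278, from the authors' deposited table). The transcripts differ by a single coding exon of 234 bases, the length of 78 codons (chr11:115588312-115588545, minus strand), which NM_173048 holds. It begins at base 947 of the coding sequence and is the longest coding stretch that separates a pair of transcripts in these genes:
Gga3 234-base exon: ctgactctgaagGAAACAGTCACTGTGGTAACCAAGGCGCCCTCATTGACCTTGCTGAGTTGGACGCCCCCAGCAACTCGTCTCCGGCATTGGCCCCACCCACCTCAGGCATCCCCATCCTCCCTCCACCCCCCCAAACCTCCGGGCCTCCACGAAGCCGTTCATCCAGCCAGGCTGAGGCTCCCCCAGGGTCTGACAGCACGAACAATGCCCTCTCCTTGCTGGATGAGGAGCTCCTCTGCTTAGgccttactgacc
The share of the summed FPKM that carried the exon was 38.6% in F4/80-negative cells and 63.5% in CD301b macrophages. The sum was 12.3 against 14.5 FPKM, a ratio of 1.18.

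Among 22 tested genes of clathrin and its adaptors, Clta and Gga3 included, 9 were higher in CD301b macrophages, 1 was lower, 11 were not called and Clta had calls both ways. The median log2 fold, on the log2(FPKM + 1) scale used for all lists, was 0.35, beside 0.05 over the 13039 genes with a tested transcript, of which 11.0% were higher and 6.20% lower. The counts of every list below are to be read beside these shares. A gene is counted as higher or lower by its called transcripts, even where only some of those tested were called. Cltc, the clathrin heavy chain, was 125 against 261 FPKM, Ap1b1, a subunit of the Golgi adaptor AP-1, was 40.6 against 127 FPKM, and Ap2a2, of the plasma membrane adaptor AP-2, was 40.3 against 85.9 FPKM. Each of these 3 had a transcript with an adjusted p of 0.000999, the smallest that the p-values of the authors' deposited table allow. In Ap1b1 that was 1 of 2 tested transcripts, while the FPKM given is summed over the gene. Cltb, the other light chain gene, was 15.04 against 15.5 FPKM and was not called, nor were Gga1 (23.8 against 30.5 FPKM) and Gga2 (8.88 against 11.6 FPKM).

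Ctage5, listed as Mia2 in current RefSeq, encodes a protein of endoplasmic reticulum exit sites that helps load bulky cargo into transport carriers (NCBI gene 338320, chromosome 12, 59095582 to 59190220). NM_146034 was 12.5 against 22.9 FPKM and rose 1.83-fold (adjusted p = 0.00674, from the authors' deposited table). NM_001165254 was 16.5 against 9.76 FPKM, 1.69-fold lower in CD301b macrophages (adjusted p = 0.0230, from the authors' deposited table). The leading transcript thus changed, with NM_146034 at 42.98% of the summed FPKM in F4/80-negative cells and 64.6% in CD301b macrophages. Only NM_146034 holds 2 coding exons of 72 and 27 bases (chr12:59144699-59144770 and chr12:59146336-59146362, plus strand), which follow each other and add 24 and 9 codons:
Ctage5 72-base exon: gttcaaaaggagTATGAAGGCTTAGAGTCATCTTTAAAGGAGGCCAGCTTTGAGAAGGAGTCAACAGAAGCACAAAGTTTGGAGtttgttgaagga
Ctage5 27-base exon: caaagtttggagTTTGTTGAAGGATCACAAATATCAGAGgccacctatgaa
Another transcript, NM_001165253, begins at another first exon and was 0.0103 against 2.80 FPKM, yet was not called (adjusted p = 0.529, from the authors' deposited table). Of 16 tested genes of endoplasmic reticulum exit, none but Ctage5 had a call in the authors' deposited table, and the list's median log2 fold was 0.04. Sec13 (60.3 against 59.6 FPKM) and Sar1a (58.8 against 51.9 FPKM), parts of the COPII coat machinery, were the most abundant, and Mia3, the partner of Ctage5 in cargo loading, was 13.1 against 13.98 FPKM.

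**Figure D2:**
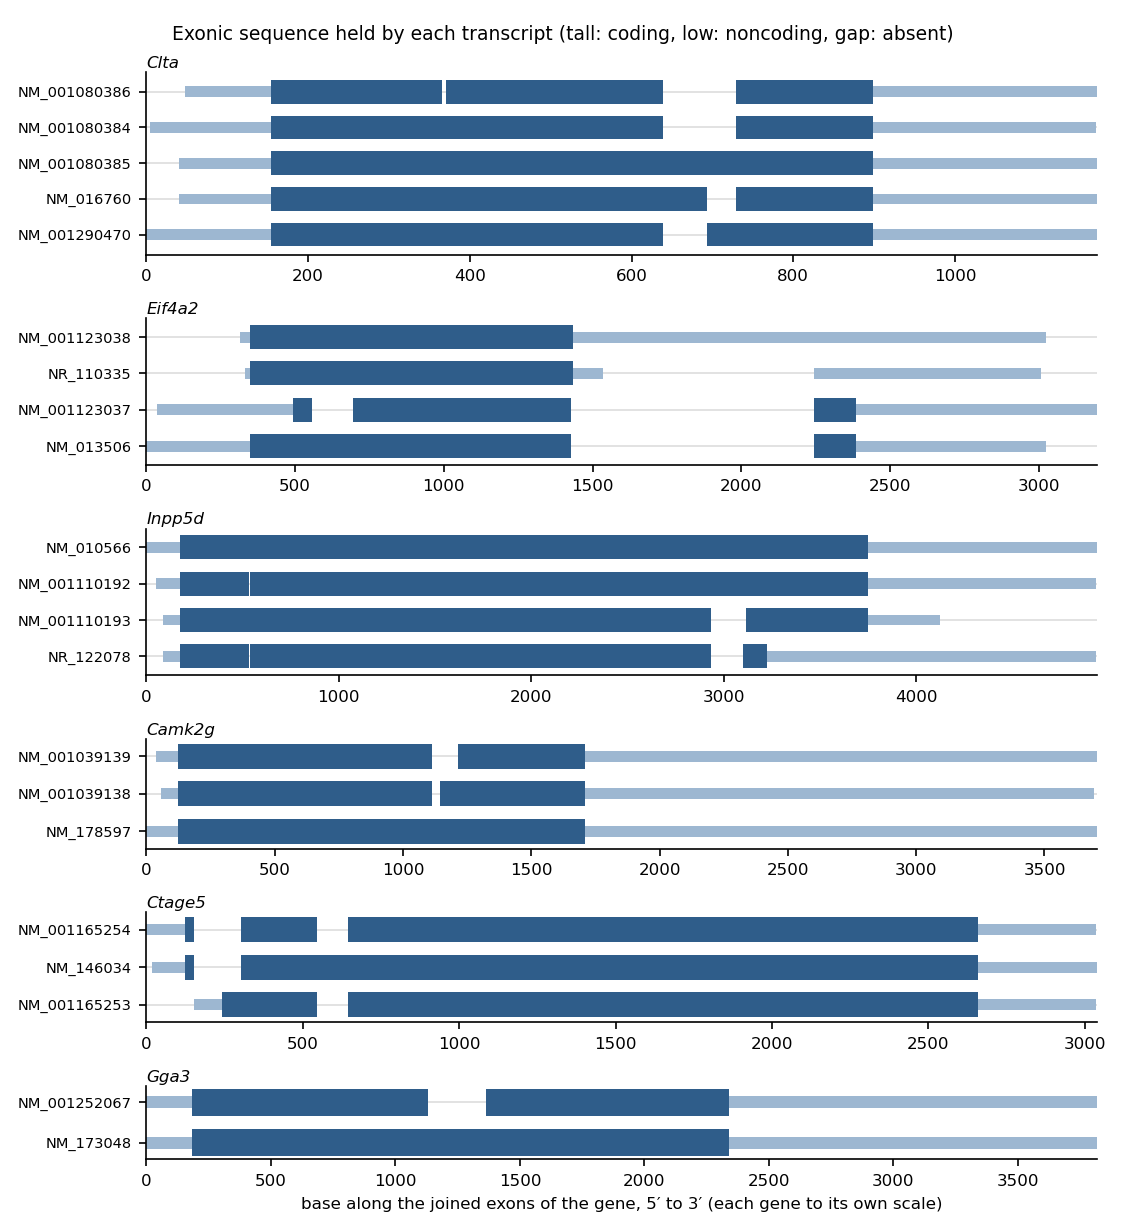
Exonic sequence held by each transcript of Clta, Eif4a2, Inpp5d, Camk2g, Ctage5 and Gga3, drawn along the joined exons of the gene in bases from the 5′ end (horizontal, each gene to its own scale); tall dark bars are coding, low pale bars noncoding, and gaps are bases that the transcript lacks. Alternative coding stretches include those of 6, 54 and 36 bases in Clta, 140 in Eif4a2, 167 and 16 in Inpp5d, 69 and 33 in Camk2g, 72 and 27 in Ctage5 and 234 in Gga3; in Eif4a2, NM_001123038 and NM_001123037 share 55.5% of their joint exonic bases.

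Inpp5d, Fyb and Camk2g act in signalling. Inpp5d encodes SHIP1, a phosphatase of blood cells that removes a phosphate from the lipid messenger made by PI 3-kinase and so dampens signals of Fc and cytokine receptors (NCBI gene 16331, chromosome 1, 87620312 to 87720510). NM_010566 led in both populations and was 23.97 against 47.9 FPKM, a 1.997-fold rise (adjusted p = 0.00182, from the authors' deposited table). NM_001110192 was 15.7 against 8.35 FPKM, 1.88-fold lower in CD301b macrophages (adjusted p = 0.00674, from the authors' deposited table). NM_001110193 was 7.83 against 15.2 FPKM and was not called (adjusted p = 0.317, from the authors' deposited table). The summed FPKM was 47.5 against 72.4, a ratio of 1.52.

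The called Inpp5d transcripts share 4880 exonic bases, and NM_001110192 has none that NM_010566 lacks. In the coding sequence they differ by 3 bases (chr1:87667889-87667891, plus strand), 1 codon in length, which NM_010566 and NM_001110193 hold and NM_001110192 does not. Transcripts with these 3 bases made up 66.9% of the summed FPKM in F4/80-negative cells and 87.1% in CD301b macrophages. NM_001110193 further lacks adjoining coding stretches of 167 and 16 bases (chr1:87715094-87715260 and chr1:87715261-87715276). The short stretch begins at base 359 of the coding sequence, inside a codon. Its 3 capitals are thus not read together as a codon and are no stop codon. It is shown since it alone separates the coding sequences of the opposed transcripts:
Inpp5d 3-base stretch: aggaggacactgTAGaaagtgtcatgt
Of 22 tested genes around phosphoinositide signalling, 5 were higher and 1 was lower, beside 11.0% and 6.20% over all genes with a tested transcript. Another 14 were not called, Inpp5d had calls both ways and Pik3r1 had a call against its summed FPKM. The median log2 fold was 0.26. Fcgr2b, the inhibitory Fc receptor to which SHIP1 binds, was 448 against 851 FPKM, and Pik3cg, a PI 3-kinase catalytic subunit of leukocytes, was 8.48 against 17.9 FPKM. Akt2, a kinase activated downstream, was 36.4 against 55.8 FPKM. In Fcgr2b and in Akt2, 1 of 2 tested transcripts was called, while the FPKM given is summed over the gene. Inppl1, which encodes the related phosphatase SHIP2, was also higher at a summed 14.4 against 21.7 FPKM. Of the 2 tested Inppl1 transcripts, 1 was called (adjusted p = 0.0316, from the authors' deposited table). Shc1, an adaptor that binds SHIP1, had 1 of its 2 tested transcripts called lower, with a summed 30.4 against 27.1 FPKM.

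Fyb encodes ADAP, an adaptor that links immune receptors to integrin activation and the actin skeleton (NCBI gene 23880, chromosome 15, 6522796 to 6665608). NM_011815 was 30.5 against 65.96 FPKM and rose 2.17-fold (adjusted p = 0.000999, from the authors' deposited table). NM_001278269 was 2.07 against 0.766 FPKM, 2.70-fold lower (adjusted p = 0.00258, from the authors' deposited table). The lower transcript was a small part of the gene, at 6.36% and 1.15% of the summed FPKM, and its share change of 5.21 points is the smallest among the 10 genes. The GENCODE annotation pairs both accessions with the same transcript, so how they differ in sequence is not given here. Of 13 tested genes around ADAP, Apbb1ip, which encodes the Rap1 effector RIAM, was higher (53.8 against 87.4 FPKM). Fyn, a Src-family kinase that phosphorylates ADAP, was lower (21.9 against 9.94 FPKM). Another 10 were not called, and the median log2 fold of the list was 0.33. Skap2, the myeloid partner of ADAP, was 94.8 against 99.8 FPKM and was not called, and its lymphocyte counterpart Skap1 was at 0.362 against 0.239 FPKM and was not tested.

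Camk2g encodes the gamma subunit of calcium- and calmodulin-dependent kinase II, whose subunits vary in a linker between the kinase and association domains (NCBI gene 12325, chromosome 14, 20734873 to 20794157). NM_001039139 was 8.22 against 4.29 FPKM, 1.92-fold lower in CD301b macrophages (adjusted p = 0.00572, from the authors' deposited table). NM_001039138 was 3.95 against 6.58 FPKM, a 1.66-fold rise (adjusted p = 0.0337, from the authors' deposited table), the highest adjusted p among the calls of these genes. The summed FPKM was 12.2 against 10.9. The coding sequences differ by a 69-base coding exon, 23 codons (chr14:20745792-20745860, minus strand). A further 33-base exon (chr14:20747819-20747851) occurs in NM_178597 alone. Both are inserted at base 991 of the coding sequence and are shown for that reason:
Camk2g 69-base exon: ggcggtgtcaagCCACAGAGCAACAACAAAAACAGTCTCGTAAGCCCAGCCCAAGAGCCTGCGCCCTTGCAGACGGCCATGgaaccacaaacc
Camk2g 33-base exon: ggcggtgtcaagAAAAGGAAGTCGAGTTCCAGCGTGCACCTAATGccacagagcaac
Transcripts with the 69-base exon made up 32.5% of the summed FPKM in F4/80-negative cells and 60.6% in CD301b macrophages. NM_178597, with both exons, was below 0.001 FPKM in both populations and was not tested. Of 13 tested genes of calmodulin signalling, 2 were higher and none was lower, beside 11.0% and 6.20% over all genes with a tested transcript. The median log2 fold was 0.25. The higher genes were Camk1 (54.2 against 113 FPKM) and Camk2d (a summed 12.2 against 17.2 FPKM), a sister subunit. In Camk2d, 1 of 3 tested transcripts was called. The subunits Camk2a (0.732 against 0.821 FPKM) and Camk2b (0.734 against 1.07 FPKM) were low and not called.

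Eif4a2 encodes a helicase that unwinds messenger RNA ahead of the scanning ribosome and also takes part in microRNA-directed repression (NCBI gene 13682, chromosome 16, 23107468 to 23114132). Of its 4 transcripts, NM_013506 has the longest coding sequence, at 1221 bases, and was 9.76 against 17.1 FPKM, a 1.75-fold rise (adjusted p = 0.00392, from the authors' deposited table). NM_001123038, whose coding sequence of 1086 bases ends elsewhere, was 24.3 against 8.87 FPKM, 2.74-fold lower in CD301b macrophages (adjusted p = 0.000999, from the authors' deposited table). NM_001123037, with 936 coding bases, was 12.6 against 5.01 FPKM and was not called (adjusted p = 0.124, from the authors' deposited table). NR_110335, a noncoding accession that GENCODE classes as a target of nonsense-mediated decay, was nearly level at 22.7 against 20.7 FPKM.

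The longest coding transcript of Eif4a2 was thus the least abundant of the 4 in F4/80-negative cells, at 14.1% of the summed FPKM, and reached 33.0% in CD301b macrophages, where NR_110335 led with 40.1%. NM_001123038 went from 35.0% to 17.2%. The sum was 69.4 against 51.7 FPKM, so the rise of NM_013506 went against the total of the gene. NM_001123037 lacks a 140-base exon (chr16:23109120-23109259, plus strand) that begins at base 209 of the longest coding sequence. In the other 3 transcripts that exon encodes a match to the ATP-binding P-loop pattern (Walker A), which begins at codon 77, and no match was found in the coding sequence of NM_001123037. It is shown for that reason:
Eif4a2 140-base exon: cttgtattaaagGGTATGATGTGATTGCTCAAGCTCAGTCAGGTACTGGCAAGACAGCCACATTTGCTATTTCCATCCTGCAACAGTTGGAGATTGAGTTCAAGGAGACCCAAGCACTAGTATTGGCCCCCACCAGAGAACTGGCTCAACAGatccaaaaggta
Transcripts with this exon made up 81.8% of the summed FPKM in F4/80-negative cells and 90.3% in CD301b macrophages. The small nucleolar RNAs Snord2 (listed at 119 and 0 FPKM) and Snora81 (12.3 against 4.37 FPKM) were assigned to the same locus in the deposited table and were not called. Of 14 tested genes of translation initiation, none other than Eif4a2 was called. Eif4a1, the near relative of Eif4a2, was 493 against 444 FPKM, Pabpc1, the poly(A)-binding protein, was 239 against 335 FPKM, and Eif4a3, the helicase of the exon junction complex, was 51.0 against 55.3 FPKM. Over the list the median log2 fold was 0.07.

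**Figure D3:**
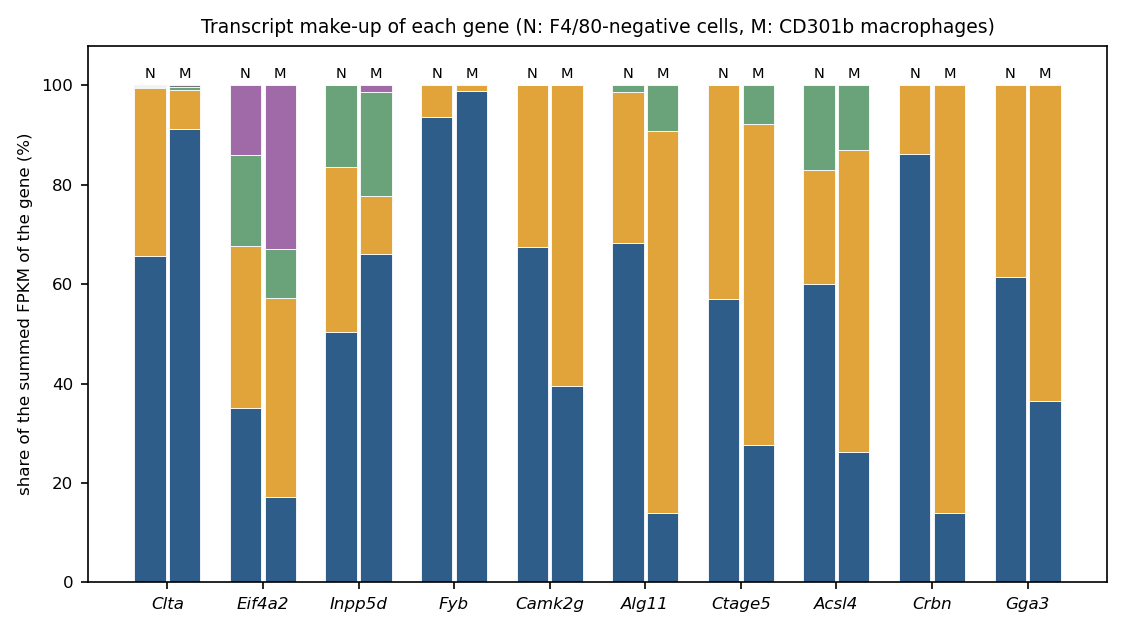
Share of the gene's summed FPKM (vertical, percent) held by each transcript in F4/80-negative cells (N) and CD301b macrophages (M); within a gene, a colour is a transcript, stacked from the most abundant in F4/80-negative cells (dark blue, at the bottom) upwards. The dark blue transcript shrinks from 86.2% to 13.98% in Crbn and grows from 65.7% to 91.1% in Clta.

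Alg11, Acsl4 and Crbn act in sugar, lipid and protein turnover pathways. Alg11 encodes a mannosyltransferase that builds the lipid-linked sugar chain for N-glycosylation (NCBI gene 207958, chromosome 8, 22060721 to 22071627). It was the lowest of the 10 genes, with a summed 2.04 against 3.36 FPKM. The transcript NR_040650, noncoding by its RefSeq accession, was 1.39 against 0.469 FPKM, 2.97-fold lower in CD301b macrophages (adjusted p = 0.00182, from the authors' deposited table). NM_001243161, coding by its accession, was 0.618 against 2.59 FPKM, a 4.19-fold rise (adjusted p = 0.000999, from the authors' deposited table). NR_040650 therefore went from 68.4% to 13.9% of the sum and NM_001243161 from 30.3% to 76.9%. GENCODE pairs these 2 accessions with the same transcript, which it classes as protein coding, so their difference in sequence is not given here. Of 24 tested genes of this pathway, Alg9, another mannosyltransferase, was higher (a summed 9.46 against 12.3 FPKM). Of the 2 tested Alg9 transcripts, 1 was called (adjusted p = 0.0499, from the authors' deposited table). No gene of the list was lower and 22 were not called, with a median log2 fold of 0.28.

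Acsl4 encodes a synthetase that activates arachidonic and other polyunsaturated fatty acids, a step known to favour ferroptosis (NCBI gene 50790, chromosome X, 142317993 to 142390802). NM_019477 was 9.85 against 4.77 FPKM and NM_001033600 was 3.74 against 11.0 FPKM, so the leading transcript changed. Neither passed the threshold, with an adjusted p of 0.437 and of 0.247 from the authors' deposited table. By share, NM_001033600 went from 22.8% to 60.7%. These transcripts differ by 3 noncoding bases in 4959 and share all 2010 coding bases. NM_207625, whose coding sequence is longer at 2133 bases, was 2.80 against 2.36 FPKM. The sum was 16.4 against 18.1 FPKM. Acsl1 (8.37 against 11.6 FPKM), Acsl3 (3.72 against 4.25 FPKM) and Acsl5 (39.4 against 48.97 FPKM) were not called. Of 14 tested genes of fatty acid activation and ferroptosis, 11 were not called and the median log2 fold was 0.15. Fads1, a desaturase (11.97 against 28.04 FPKM), and Alox5, which starts leukotriene synthesis (7.44 against 15.8 FPKM), were higher. Alox15, another lipoxygenase, was lower (12.7 against 7.70 FPKM).

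Crbn encodes cereblon, the substrate receptor of a CUL4 ubiquitin ligase and the target of thalidomide (NCBI gene 58799, chromosome 6, 106778244 to 106800099). Its share change, 72.2 points, was the largest among the 10 genes. NM_021449 was 5.55 against 1.42 FPKM, 3.90-fold lower in CD301b macrophages (adjusted p = 0.000999, from the authors' deposited table). NM_175357 was 0.891 against 8.75 FPKM, a 9.82-fold difference that was not called (adjusted p = 0.421, from the authors' deposited table). NM_175357 made up 13.8% of the summed FPKM in F4/80-negative cells and 86.0% in CD301b macrophages. By the paired GENCODE transcripts, the difference is 12 bases of 2084, namely 9 noncoding bases and 3 coding bases that NM_175357 holds (chr6:106795995-106795997, minus strand):
Crbn 3-base stretch: cgcttctgcctgCAGacagtgaagatg
Of 12 tested genes of this ligase and its targets, 2 were higher and none was lower, beside 11.0% and 6.20% over all genes with a tested transcript. Another 9 were not called, and the median log2 fold was 0.31. In Crbn the call went against the summed FPKM (6.44 against 10.2). Glul, glutamine synthetase and a known cereblon substrate, was 88.1 against 249 FPKM, and Ikzf1, the transcription factor Ikaros, was a summed 18.8 against 26.1 FPKM. In Ikzf1, 1 of 2 tested transcripts was called. The ligase subunits Ddb1 (71.4 against 84.8 FPKM), Cul4a (9.31 against 11.4 FPKM) and Cul4b (6.54 against 9.13 FPKM) were not called.

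The transcripts of a gene overlap widely, and the sequence that tells them apart was measured as the number of 50-base words of a transcript that occur in no other transcript of the same gene in the table. Words were taken from the paired GENCODE transcripts. Among the 27 transcripts with a GENCODE transcript of their own, the share of such words was 0% in Clta NM_001080384 and in Inpp5d NM_001110192, both of them called lower. Transcripts of low FPKM count here too: Clta NM_001290470 (0.490 against 2.10 FPKM) holds all 1079 bases of NM_001080384. Against its opposed transcript NM_001080386 alone, NM_001080384 has 49 bases of its own. Inpp5d NR_122078 (0.000219 against 0.956 FPKM) also lacks the 3 coding bases that NM_001110192 lacks, so words across that site occur in both. Words of NM_001110192 against its opposed transcript NM_010566 alone were not counted. The share of words found in no other transcript of the gene was 4.89% in Clta NM_001080386, 1.62% in Eif4a2 NM_013506, 28.3% in Eif4a2 NM_001123038, 1.10% in Inpp5d NM_010566, 1.37% in Camk2g NM_001039139 and 1.35% in Camk2g NM_001039138. In Ctage5 the share was 0.622% in NM_001165254, called lower, and 5.25% in NM_146034, called higher. In Acsl4 the opposed transcripts had 0.957% and 0.958%, in Crbn 2.37% and 2.95%, and in Gga3 1.30% for the transcript without the 234-base exon and 7.43% for the one with it. The FPKM of a transcript with few words of its own rests on how shared reads were divided, and the part of that division in the opposed values was not tested.

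Coding stretches found in some transcripts of a gene and not in others were mostly a whole number of codons in length. Of 18 such stretches that were coding wherever they occurred, 14 were a multiple of 3 bases, and the 4 others lay in Eif4a2 and Inpp5d. The Inpp5d stretches of 167 and 16 bases adjoin, and NM_001110193 lacks both, which together are a multiple of 3 bases. In Fyb, Eif4a2, Crbn and Gga3, exons also overlap a gene on the opposite strand: Gm2245 by 145 bases, Rfc4 by 175, Trnt1 by 144 and Mrps7 by 127. No source used here says that reads were assigned by strand, and without it the reads of such a pair cannot be told apart in these stretches.

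A large ratio without a call, as in Crbn NM_175357 and Ctage5 NM_001165253, was common in the deposited table. Among tested transcripts that reached 1 FPKM in a population, 466 differed at least 5-fold in FPKM, and 404 of these were not called. Across the 2117 genes with several transcripts at 1 FPKM or more, the largest change of a transcript's share had a median of 6.68 points and a 90th percentile of 24.8 points. In the 10 genes it ranged from 5.21 to 72.2 points with a median of 26.9, and these genes were chosen for such changes. Changes of 20 points or more occurred in 15.3% of the 2117 genes.

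**Figure D4:**
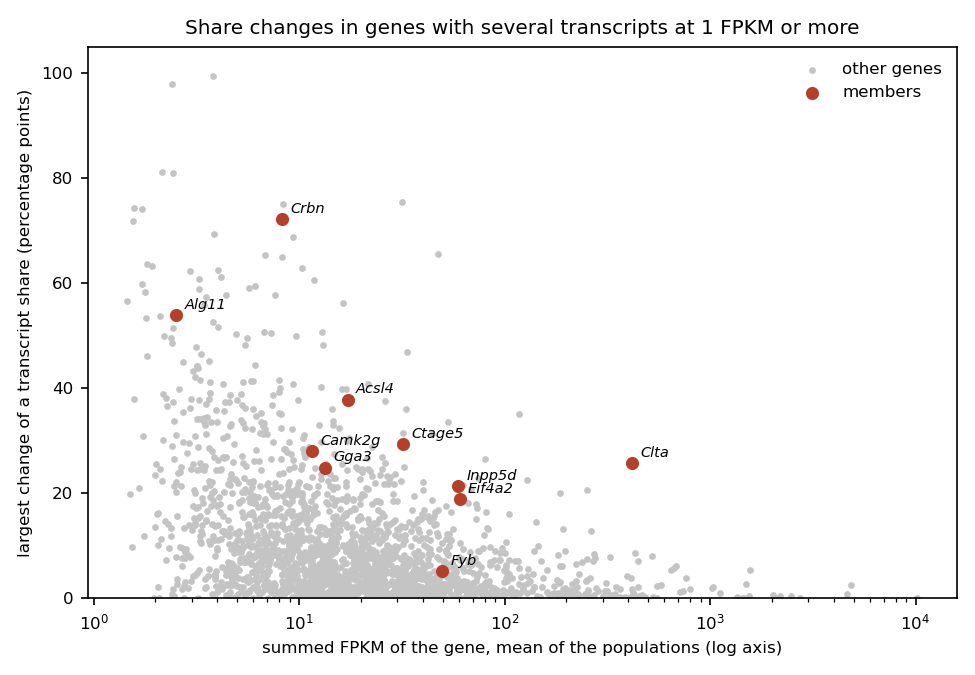
Largest change of a transcript's share between the populations (vertical, percentage points) against the summed FPKM of the gene averaged over the populations (horizontal, log axis); each point is 1 of 2117 genes with several transcripts at 1 FPKM or more, counting only such transcripts, and red points are the 10 genes. The 10 genes run from Fyb at 5.21 points to Crbn at 72.2 points, and the most abundant of them, Clta, lies at 25.8 points.

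Splicing regulators were counted because several of these transcripts differ by exon choice. Of 49 tested, 5 were higher in CD301b macrophages, 6 were lower, 37 were not called and Srsf1 had a call against its summed FPKM, with a median log2 fold of -0.04, beside the 11.0% higher and 6.20% lower over all genes with a tested transcript. Qk, an RNA-binding regulator of myeloid and glial splicing, was 46.5 against 86.3 FPKM, Ptbp3, a polypyrimidine tract-binding protein, was 42.9 against 67.4 FPKM, and Celf2 was 14.3 against 22.8 FPKM. Hnrnph1 (85.5 against 46.3 FPKM), Hnrnpa1 (54.2 against 32.4 FPKM) and the SR-related factor Tra2a (70.2 against 45.4 FPKM) were lower. In Ptbp3 and in Hnrnpa1, 1 of 2 tested transcripts was called, in Celf2 1 of 3 and in Qk 2 of 3. Whether any of these regulators acts on the 10 genes was not tested.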

How the data were processed

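Libraries were made with an Illumina TruSeq mRNA protocol, per the labels' protocols. TopHat2 2.0.2, Cuffdiff 2.0.2 and the build mm9 are named in the submitters' processing notes. The authors deposited 1 table of FPKM values, 1 per RefSeq transcript and population, with an unadjusted p-value, per the file headers. The sources do not say how libraries were combined. The table's 16921 transcripts of status OK were tested, and its calls equal a Benjamini-Hochberg adjusted p-value of 0.05 or less over these in all 34535 transcripts. The deposited log2 column was not used. The p-values have a lower limit of 5e-05.

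FPKM ratios, shares of each gene's summed FPKM and log2(FPKM + 1) differences were computed here. A gene was called when at least 1 transcript was called, none the other way, and the sum agreed. Accessions were paired with GENCODE M21 transcripts, and sequences were read from its transcript file. Base differences, lengths and words are those of the paired transcripts, which were not compared with the RefSeq sequences. All 10 deposited loci overlap the RefSeq gene on GRCm38.p6, so GRCm38 positions are printed. Coding lengths leave out the stop codon.

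The table has no values per library, so no test was run. The members, the 10 gene lists and the rule for named genes (all members, their close relatives, and up to 3 called list genes in each direction at 5 FPKM or more, or the 2 most abundant where none was called) were chosen with earlier results of these data known. Python 3.11.15, pandas 2.3.3, numpy 2.4.6 and matplotlib 3.10.9 were used. The adjustment and switch code was tested on simulated data.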

Additional observations from a re-analysis of the deposited data

How the results depend on the processing

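No paired analysis was possible because the table holds 1 value per population, and for the same reason no replicate could be left out. The 7 genes with opposed calls were 6 when p-values were adjusted over all transcripts with a p-value, 5 at an adjusted p of 0.01 (without Camk2g and Ctage5) and 7 at 0.10. All but Gga3, 9 genes, had transcripts at least 1.5-fold apart each way by FPKM alone (10 after scaling each population to the median ratio over genes of 1.07). That rule uses no p-value, and its share over all genes was not computed. Since the genes were chosen on this pattern, these counts lend it no support. Calls stayed between 7 and 8 in each direction under these adjustments. The most abundant transcript differed in 7 genes when only tested transcripts or those at 1 FPKM or more were counted, and in 6, without Alg11, with coding transcripts only, an alternative added after seeing the data. With coding transcripts only, the share change of Eif4a2 NM_013506 was 34.2 points in place of 18.95. No log2 fold changed sign with a pseudocount of 0.1 or 0.01 or with scaling. At each of these pseudocounts 10 folds moved by over 1.5 times, all of them of transcripts at 2.80 FPKM or less in both populations. Scaling moved 5 folds by over 1.5 times: Eif4a2 NR_110335 (-0.13 to -0.22) and the sums of Camk2g (-0.15 to -0.24), Ctage5 (0.28 to 0.18), Acsl4 (0.14 to 0.04) and Gga3 (0.22 to 0.13). Depth is unknown, so no limit of detection is given.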
